A study of Mus musculus with 16 samples.

Results

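Foxd3, Sox10, Tfap2a, Tfap2b, Msx1, Msx2, Ets1 and Erbb3, a set of 7 transcription factors of the neural plate border and neural crest and 1 crest receptor, were followed through neuronal differentiation of mouse embryonic stem (ES) cells with and without Taf4. The members were taken by gene name, and all 8 were found among the 27807 genes with a normalised read count. Poly-A RNA had been sequenced from 16 libraries, 2 for each of 8 groups. WT (Taf4+/+) and mutant (Taf4a-/-) lines were each sampled as ES cells and as embryoid bodies (EBs, floating aggregates of differentiating cells) taken before retinoic acid (EB4), a day into retinoic acid (EB5) and at the last time point (EB8). The mutant lines carry a germline null allele of Taf4a, which encodes a subunit of the general transcription factor TFIID, so Taf4 was missing in ES cells already and not only during differentiation. All ES cells, WT included, had been grown on mouse embryonic fibroblast feeders. There were 2 independent lines of each genotype, but the labels do not say which line a replicate number stands for. The median log2 level over a chromosome's genes, centred per gene and library, differed between same-numbered WT ES and EB4 libraries. Chromosome 8 went from -0.15 to 0.41 in replicate 1, and X from 0.47 to -0.15 in replicate 2. In the mutant, chromosome 11 stood at 0.225 and 0.18 in replicate 1, and X at 0.36 and 0.55 in replicate 2. The 7 chromosomes of the members lay within -0.12 and 0.13. Whether these libraries differ in line was not tested.

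The neural crest arises at the border between neural plate and surface ectoderm, where BMP, WNT and FGF signals turn on border factors of the Msx, AP-2, Pax and Zic families. These act before the crest specifiers Foxd3, Sox10 and Ets1, and cells that leave the neural tube then carry receptors such as Erbb3, which binds neuregulins. Several of these genes also have other uses: Foxd3 is a regulator of pluripotent ES cells, Erbb3 is found in many epithelia, and Ets1 in endothelium and mesoderm. In bulk RNA, fewer cells of a type and less RNA per cell cannot be told apart.

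The libraries held 22442118 to 40711826 reads in genes, and the ES libraries (32631020 to 40711826) were all deeper than those of EBs (22442118 to 27685306), so depth and stage cannot be told apart in the step from ES to EB4. The count of Taf4a itself was not lower in the mutant, with 1591 to 1959.6 normalised counts in the 8 WT libraries and 1973 to 2400.0 in the 8 mutant libraries. A count over the whole gene includes exons that the null allele keeps, so it does not check the labels, and WT and mutant below mean libraries labelled as such. In WT the summed normalised count of 5 pluripotency markers went from 48225 and 69208 in ES cells to 1225 and 1274 at EB8, and that of 4 neural progenitor markers from 18428 and 17370.4 to 29811 and 28232. The neural progenitor markers include Sox2, which the paper also names as a pluripotency marker, so their sum is not particular to neural cells. Both libraries of a group are given in the order replicate 1, replicate 2. Each limma p-value uses a spread per gene that is pooled over such pairs of libraries in all 8 groups. It is thus not the spread of the pair printed beside it. Libraries of the same line at different stages count as independent.

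TFIID assembles on core promoters, so the 150 bases just before the RefSeq transcription start (build GRCm38.p6) are shown for some members. Foxd3 and Tfap2b are shown because they were lower in the mutant at EB8. Msx1 and Msx2 are shown because, of the members with an entry, only they had a CCAAT box. The share of member windows with this box was close to that of all windows. In the lines that follow, capitals mark CCAAT boxes (CCAAT) and GC boxes (GGGCGG) found on either strand.
Foxd3 (chr4:99656149-99656298, plus strand): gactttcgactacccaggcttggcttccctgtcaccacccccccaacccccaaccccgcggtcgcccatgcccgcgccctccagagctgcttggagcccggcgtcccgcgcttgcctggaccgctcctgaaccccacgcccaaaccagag
Tfap2b (chr1:19211904-19212053, plus strand): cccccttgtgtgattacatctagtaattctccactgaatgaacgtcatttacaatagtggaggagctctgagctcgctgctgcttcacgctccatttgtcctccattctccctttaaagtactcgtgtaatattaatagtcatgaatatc
Msx1 (chr5:37824586-37824735, minus strand): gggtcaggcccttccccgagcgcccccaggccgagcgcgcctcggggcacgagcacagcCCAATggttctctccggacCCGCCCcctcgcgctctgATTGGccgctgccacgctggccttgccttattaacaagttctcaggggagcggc
Msx2 (chr13:53472781-53472930, minus strand): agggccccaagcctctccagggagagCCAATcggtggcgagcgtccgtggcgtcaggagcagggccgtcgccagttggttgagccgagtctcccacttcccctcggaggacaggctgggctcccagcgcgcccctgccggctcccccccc
Entries were present for 5 of the 8 members, with 6 start sites in all since Tfap2a has 2. In the 250 bases before the start, the TATA box letters TATAAA were in 0 of these 6 windows, against 12.4% of the 32851 RefSeq windows of that length. CCAAT was in 2 of 6 (33.8% of all windows), namely Msx1 with matches beginning at -91 and -54 and Msx2 with a match at -124, counted back from the start. GGGCGG was in 4 of 6 (32.7% of all), and the retinoid receptor half-site AGGTCA in 0 of 6 (14% of all). Foxd3, Msx1 and Msx2 had GC contents of 65.6%, 68% and 61.6% over the 250 bases, above the median of 52.4% for all windows, whereas Tfap2b was at 46.4%. These are matches of letters in a window and not measured binding.

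At EB8, the genes split in both directions between genotypes. Foxd3 and Tfap2b, both rising in WT at this stage, were lower in the mutant by 3.09 ± 0.67 and 4.24 ± 1.13 (log2 change ± SE), whereas Sox10 and Erbb3 were higher by 3.08 ± 0.76 and 1.58 ± 0.40. The limma adjusted p-values were 0.00627, 0.0178, 0.0122 and 0.0144. Thus 4 of the 8 genes passed the test, 2 higher and 2 lower, where 22.9% of the 16124 genes tested passed (10.4% higher and 12.5% lower). Msx1 at -1.92, Tfap2a at -0.70 and Ets1 at 0.55 did not pass (limma adjusted p 0.0946, 0.248 and 0.442), although both mutant libraries lay outside the WT range, and Msx2 overlapped between genotypes. Msx1 passed with DESeq2 (-1.84, adjusted p 0.0434, range over the alternatives 0.0434 to 0.459). The ranges thus lay apart for 4 members that were lower and 3 that were higher, where 33.5% and 30.4% of all genes tested lay apart in these directions. The median change was -0.75 over the 8 genes and -0.03 over all genes tested. With upper-quartile rescaling the median of all genes moved to 0.11 and 58.5% of all calls at EB8 were higher, against 45.4% as deposited. The 4 members called had the same sign and passed there too.

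**Figure D1:**
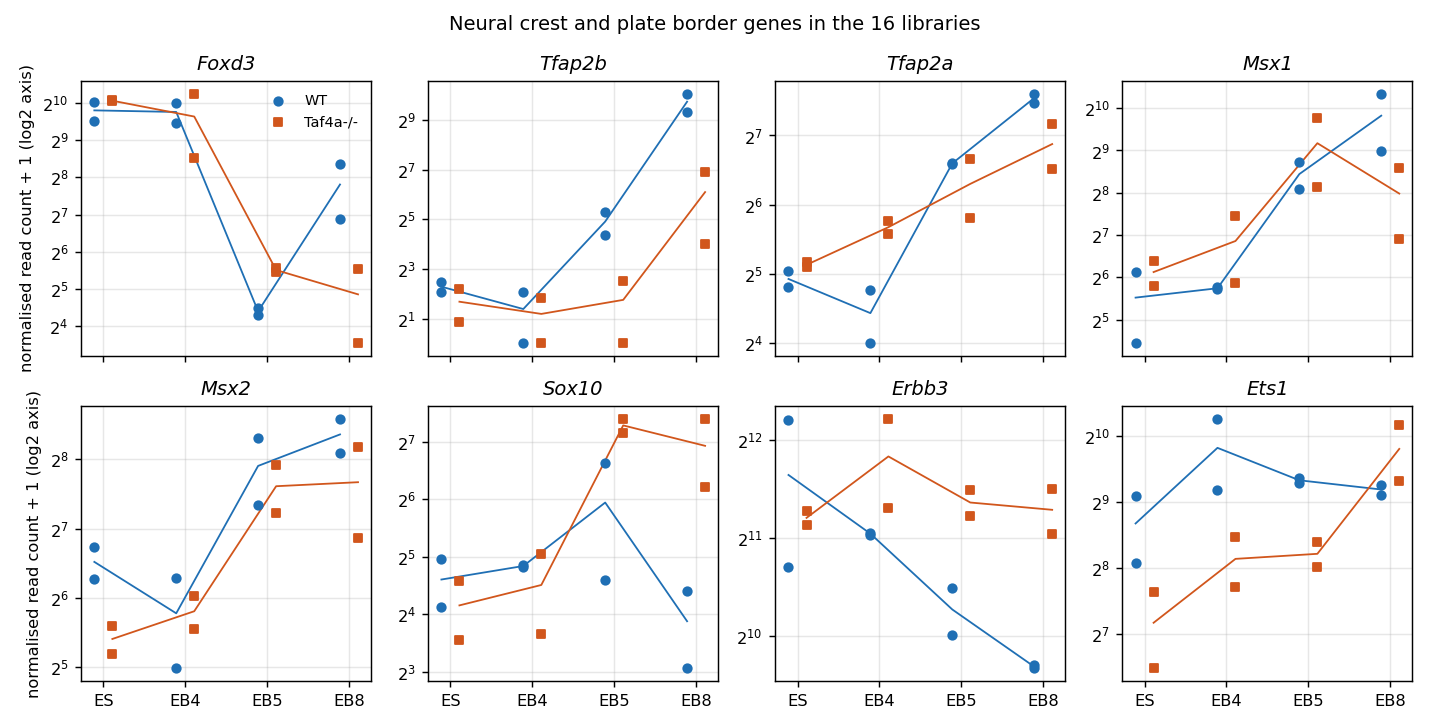
Normalised read counts plus 1 (log2 axis, own range in each panel) of the 8 genes at each stage, with 1 point per library (circles WT, squares Taf4a-/-) and lines through the means of the 2 libraries. Foxd3 drops at EB5 in both genotypes and stands at 117 and 330.3 in WT and at 45.4 and 10.7 in the mutant at EB8, while Erbb3 at EB8 stands at 835 and 814 in WT and lies between 2105 and 4772 in the mutant EBs.

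Among the border factors, Msx1 and Msx2 encode homeodomain repressors that respond to BMP. Msx1 (chromosome 5, 38211724 to 38215822, build mm9, minus strand) had normalised counts of 69.2 and 20.7 in WT ES cells, 51.5 and 53.6 at EB4, 272 and 422 at EB5, and 508 and 1300.2 at EB8. In the mutant it had 54.8 and 82.9, then 173 and 57.4, 873 and 278, and 385 and 118. Each later group of WT EBs lay above the one before without overlap, while the mutant was highest at EB5 and its EB8 libraries overlapped those of EB5. The steps from EB4 to EB5 were 2.67 in WT and 2.29 in the mutant on the log2 scale (limma adjusted p 0.0916 and 0.158), and that from EB5 to EB8 in WT was 1.26 (0.357), so none of them passed with limma. With DESeq2 both steps to EB5 passed, at an adjusted p of 0.00663 in WT (range over the alternatives 0.00663 to 0.411) and 0.0320 in the mutant (0.0320 to 0.591). WT EB8 came first in the order of means, and only the neighbours mutant ES and WT EB4 lay apart in that order.

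Msx2 (chromosome 13, 53562250 to 53568443, minus strand) had 76.5 and 105 in WT ES cells, 30.7 and 77.2 at EB4, 161 and 316 at EB5 and 271 and 383 at EB8. Its mutant counts were 47.3 and 35.7, 64.3 and 45.9, 239.9 and 149, and 289 and 116. In both genotypes the EB5 libraries lay above those of EB4, by 2.19 ± 0.55 in WT (limma adjusted p 0.0466) and by 1.78 ± 0.55 in the mutant (0.118), which passed with DESeq2 (0.0280, range over the alternatives 0.0156 to 0.450). The WT call is close to the threshold: it stood in 3 of the 16 fits that left out a library, those without WT EB4 replicate 2, mutant EB8 replicate 1 or mutant EB8 replicate 2, and the adjusted p ran from 0.0280 to 0.374, highest without WT EB4 replicate 1. At ES, both mutant libraries were below both WT libraries, at -1.11 (limma adjusted p 0.467). The EB8 and EB5 groups of both genotypes came first in the order of means and overlapped as neighbours, and WT ES followed, apart from the groups on either side of it.

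Tfap2a and Tfap2b encode AP-2 factors, which act at the plate border and again in migrating crest. Tfap2a (chromosome 13, 40811044 to 40829192, minus strand) had 31.9 and 27.1 in WT ES cells, 26.3 and 15.0 at EB4, 95 and 96.6 at EB5 and 176 and 194 at EB8. Mutant libraries held 33.2 and 35.0, 46.7 and 53.6, 100.5 and 55.3, and 142 and 90.5. The WT thus stepped up sharply at EB5, whereas the mutant was already above WT at EB4 and ended below it at EB8. WT rose by 2.21 ± 0.41 from EB4 to EB5 (limma adjusted p 0.0101), a call lost without WT EB4 replicate 2 (0.0660), WT EB5 replicate 1 (0.0527) or WT EB5 replicate 2 (0.0885). The mutant step was 0.57 ± 0.41 (0.554), and the difference of the steps, -1.65 ± 0.58, did not pass (limma adjusted p 1.00). At EB4 the mutant difference was 1.29 ± 0.41 (limma adjusted p 0.0843). Exons of Tfap2a overlap the antisense gene Gm16989, which held at most 9 reads in any library. In the order of means, WT EB8 stood apart at the top, mutant EB8, WT EB5 and mutant EB5 overlapped as neighbours, and mutant EB4, mutant ES, WT ES and WT EB4 followed, each apart from the next.

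Tfap2b (chromosome 1, 19198995 to 19228815, plus strand) was near or at the floor of 3 reads before retinoic acid, with 4.55 and 3.19 in WT ES cells, 0 and 3.22 at WT EB4, 0.830 and 3.57 in mutant ES cells and 0 and 2.55 at mutant EB4. WT libraries then held 19.8 and 38.4 at EB5 and 637 and 1078 at EB8. In the mutant there were 4.74 and 0 at EB5 and 120.3 and 14.9 at EB8. Every WT library thus lay above every mutant library at EB5 and EB8, and both genotypes were highest at EB8. WT rose by 4.86 ± 1.13 from EB5 to EB8 (limma adjusted p 0.0173), and the mutant estimate of 4.20 ± 1.13 did not pass with limma (0.117) but did with DESeq2 (4.83, adjusted p 0.00196, range over the alternatives 0.00196 to 0.600). WT EB8 stood apart at the top of the order, mutant EB8 and WT EB5 overlapped, and the other 5 groups overlapped as neighbours well below them. From EB4 to EB5 the WT mean was at least 8.85-fold higher, with EB4 taken at the floor, a step that did not pass with limma and passed with DESeq2 (0.0193, range 0.0193 to 0.565). At EB5 the genotype difference was -3.58 ± 1.13 (limma adjusted p 0.0940), a fitted value that depends on the pseudocount because 1 mutant library was at 0. The EB8 call was lost without WT EB8 replicate 1 (0.0534), WT EB8 replicate 2 (0.104) or mutant EB8 replicate 2 (0.158), over which the change ran from -4.62 to -2.77, and with a pseudocount of 0.1 (0.165). The WT rise to EB8 was lost without WT EB5 replicate 1 (0.133), WT EB8 replicate 1 (0.0596) or WT EB8 replicate 2 (0.118) and with that pseudocount (0.171). Over all alternatives the limma, edgeR or DESeq2 adjusted p at EB8 lay between 0.000840 and 0.165.

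The crest specifier Foxd3, a forkhead repressor also present in pluripotent cells, showed the largest fall of the 8 genes between successive stages. Foxd3 (chromosome 4, 99322990 to 99325362, plus strand) had 733 and 1051 normalised counts in WT ES cells, 1023 and 709 at EB4, 21.6 and 18.7 at EB5 and 117 and 330.3 at EB8. The mutant held 1078 and 1058, 1221 and 369, 42.7 and 46.5, and 45.4 and 10.7. Both genotypes thus lost most of the transcript on the first day of retinoic acid, and at EB8 the WT libraries were above their EB5 level while the mutant libraries overlapped theirs. The fall at EB5 was -5.34 ± 0.67 in WT (limma adjusted p 0.000639) and -3.88 ± 0.67 in the mutant (0.00836). The WT fall passed without any single library, while the mutant fall was lost without mutant EB4 replicate 1 (0.0800), mutant EB5 replicate 1 (0.0762) or mutant EB5 replicate 2 (0.0510). From EB5 to EB8, WT rose by 3.23 ± 0.67 (limma adjusted p 0.00966), lost without WT EB5 replicate 1 (0.0584) or WT EB8 replicate 2 (0.104). The genotype difference at EB8 was lost without WT EB8 replicate 2 (0.0706) or mutant EB8 replicate 2 (0.0592), with estimates of -2.34 and -2.09, and in a fit of the compared groups alone (0.0509). In the order of means WT EB8 (223) stood alone, below the ES and EB4 groups and above mutant EB5 (44.6), mutant EB8 (28.0) and WT EB5 (20.2), of which neighbours overlapped. Exons of Foxd3 overlap the miRNA gene BX005053.1 on the same strand, for which no row was matched, so reads of both genes cannot be told apart here.

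Sox10, an SRY-box factor of migrating crest and its glia, went the other way. Sox10 (chromosome 15, 78985343 to 78994920, minus strand) had 16.4 and 30.3 in WT ES cells, 27.4 and 27.9 at EB4, 97.9 and 23.1 at EB5 and 7.35 and 20.1 at EB8. Mutant libraries held 10.8 and 22.9, 11.7 and 31.9, 141 and 168, and 168 and 73.5. All 4 mutant libraries of EB5 and EB8 lay above the WT libraries of their stage, while the genotypes overlapped at ES and EB4. The EB8 difference was lost without WT EB8 replicate 1 (adjusted p 0.0966) or mutant EB8 replicate 1 (0.09997), at 2.41 and 2.49 on the log2 scale. At EB5 the difference was 1.67 ± 0.76 (limma adjusted p 0.235), with the WT libraries at 97.9 and 23.1. The mutant step from EB4 to EB5 was 2.92 ± 0.76 (0.0676), which passed without WT EB5 replicate 1 (0.0472) or WT EB5 replicate 2 (0.0460) and with DESeq2 (0.0110, range over the alternatives 0.0110 to 0.296). Mutant EB5 and EB8 came first in the order of means, and every neighbouring pair of groups in it overlapped.

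Ets1, an ETS-domain factor of cranial crest and of endothelium, lay lower in the mutant before EB8. Ets1 (chromosome 9, 32443806 to 32565405, plus strand) had 546 and 269 in WT ES cells, 578 and 1222 at EB4, 626 and 656 at EB5 and 551 and 612 at EB8. In the mutant it had 198 and 88.6, 354 and 208, 336 and 257, and 637 and 1143. Both mutant libraries were below both WT libraries at ES, EB4 and EB5 and above them at EB8. The differences at the first 3 stages were -1.52, -1.63 and -1.12 (SE 0.48 each) and did not pass (limma adjusted p 0.234, 0.0667 and 0.209), except at EB4 with DESeq2 (0.00881, range over the alternatives 0.00881 to 0.417). From EB5 to EB8 the mutant change was 1.54 ± 0.48 (limma adjusted p 0.188), which passed with DESeq2 (0.0345, range 0.0345 to 0.635). WT moved by -0.14 over the same step (0.905). Feeder fibroblast markers had lower summed counts in both mutant libraries at the same stages, at 285 and 837 against 1282 and 3219 in WT at ES, 645 and 935 against 1209 and 1539.8 at EB4, and 1553 and 1747 against 3020 and 1995 at EB5. With limma 0 of the 10 tested passed at each of these stages, where 0%, 6.12% and 4.34% of all genes passed. An unadjusted p under 0.05 was found for 5, 2 and 1 of them (11.4%, 22.7% and 20.7% of all genes). Their median changes were -1.81, -0.32 and -0.49. Lum was at the floor in both genotypes at ES and EB4. In the mutant the sums rose from ES to EB5, and they do not show which cells carry these markers. The part of any feeder cells in the Ets1 differences was not tested. WT EB4, mutant EB8 and WT EB5 led the order of means and overlapped as neighbours, WT EB8 came next, apart from both sides, and mutant ES was last, apart from mutant EB4.

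Erbb3, the neuregulin receptor of crest and Schwann cell precursors, differed between the genotypes most clearly in the EBs. Erbb3 (chromosome 10, 128004579 to 128026708, minus strand) had 1667 and 4737 in WT ES cells, 2099.9 and 2127 at EB4, 1439 and 1033 at EB5 and 835 and 814 at EB8. In the mutant there were 2253 and 2474, 2530.4 and 4772, 2387 and 2883, and 2900.4 and 2105. Each later group of WT EBs lay below the one before, whereas the mutant EB groups overlapped one another and all lay above WT of their stage. The differences were 0.72 ± 0.40 at EB4 and 1.10 ± 0.40 at EB5 (limma adjusted p 0.320 and 0.141), the second passing without WT ES replicate 1 (0.0406) or WT ES replicate 2 (0.0410). The EB8 call was lost without WT EB8 replicate 1 (0.0599), WT EB8 replicate 2 (0.0724) or mutant EB8 replicate 1 (0.0993). Neither WT step, -0.79 to EB5 and -0.56 to EB8, passed (limma adjusted p 0.404 and 0.435). WT EB4, EB5 and EB8 held the last 3 places in the order of means, each apart from the next, while WT ES overlapped its mutant neighbours above them.

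**Figure D2:**
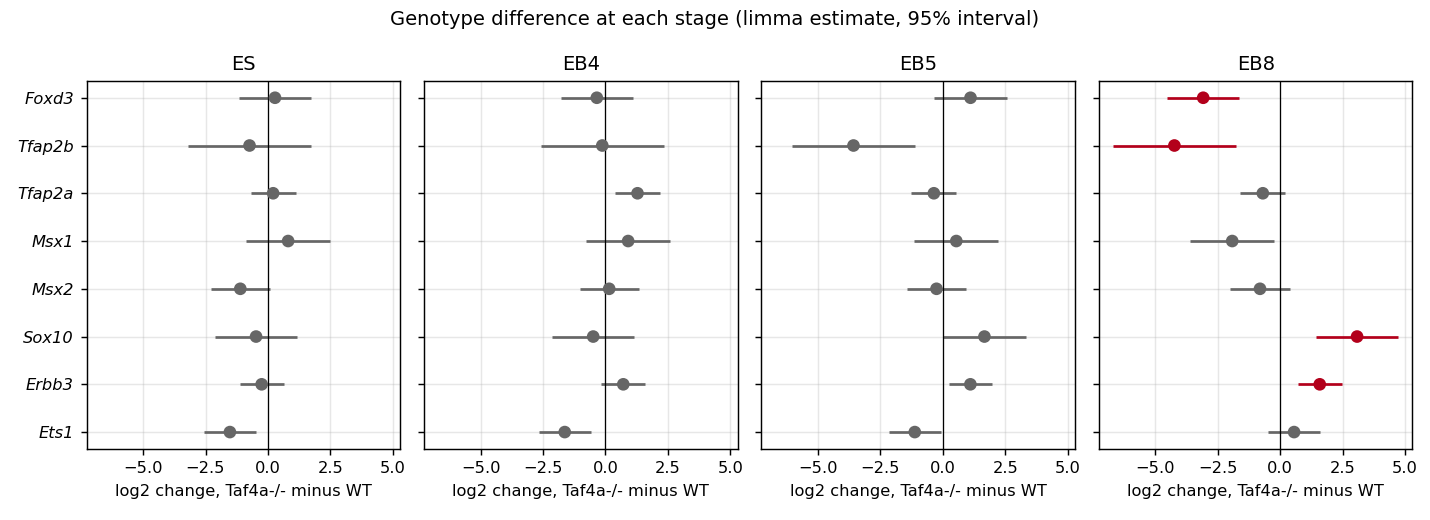
Log2 change of each gene, Taf4a-/- minus WT, at the 4 stages (limma estimate with its 95% interval, red where the adjusted p is under 0.05). At EB8 Foxd3 (-3.09) and Tfap2b (-4.24) lie to the left of 0 and Sox10 (3.08) and Erbb3 (1.58) to the right, and no gene passed at ES, EB4 or EB5.

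Before EB8, 0 of the 8 genes passed between genotypes with limma, where 0%, 6.12% and 4.34% of all genes passed at ES, EB4 and EB5 in turn. At an unadjusted limma p under 0.05 there were 1, 2 and 4 members, against 11.4%, 22.7% and 20.7% of all genes. The edgeR test called 0 members at each of these stages (0%, 5.03% and 3.74% of all genes). DESeq2 called 0, 1 and 1 members (2.97%, 13.4% and 10.7% of all genes), the EB5 call being Tfap2b (0.0228). Between ES and EB4, limma, edgeR and DESeq2 each called 0 members in WT (16.5%, 16.4% and 24.3% of all genes in turn). Each also called 0 in the mutant (3.50%, 3.12% and 11.2%). At an unadjusted limma p under 0.05 there were 1 member in WT and 0 in the mutant (32.7% and 21.4% of all genes). From EB4 to EB5, 3 members passed in WT (3.73% of all genes), Foxd3 falling and Tfap2a and Msx2 rising, and only Foxd3 in the mutant (2.51%). From EB5 to EB8, Tfap2b and Foxd3 passed in WT (10.4%) and 0 in the mutant (0.738%). In the mutant 2 had an unadjusted p under 0.05 (12.8% of all genes), edgeR called 0 (0.515%) and DESeq2 called 2 (4.18%).

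Whether a step itself differed between genotypes was tested by interaction terms, and with limma 0 of the 8 genes passed for any step (0%, 0% and 0.781% of all genes for the 3 steps in order). Unadjusted p-values under 0.05 were found for 0, 1 and 3 members (7%, 2.96% and 9.72% of all genes). With edgeR 0 passed throughout (0%, 0% and 0.695% of all genes), and DESeq2 called 1, at the last step (3.03%). That gene was Foxd3, whose EB5 to EB8 change was different in the mutant by -4.20 ± 0.94 on the log2 scale (limma adjusted p 0.0701), with 0.000863 in DESeq2 and 0.0275 without mutant EB8 replicate 1 (range over the alternatives 0.000863 to 0.284). The other changes of the last step with an unadjusted p under 0.05 were -2.46 ± 1.10 for Msx1 and 1.68 ± 0.68 for Ets1 (limma adjusted p 0.486 and 0.416).

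Set per kilobase of exon, the levels at EB8 were ordered differently in the genotypes. In WT the mean normalised count per kb was 467 for Msx1, 137 for Erbb3, 134 for Tfap2b, 133 for Msx2, 94.2 for Foxd3, 90.6 for Ets1, 57.1 for Tfap2a and 5.06 for Sox10. In the mutant it was 416 for Erbb3, 139 for Ets1, 130.1 for Msx1, 82.5 for Msx2, 44.5 for Sox10, 35.9 for Tfap2a, 11.8 for Foxd3 and 10.6 for Tfap2b. Sox10 was thus last in WT and above 3 other members in the mutant, and Tfap2b passed from the third place to the last.

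Families of the members were uneven at EB8. Of the other AP-2 genes, Tfap2c, which is also active in trophoblast and germ cells, was higher in the mutant by 3.50 ± 0.52 (limma adjusted p 0.000717), its counts being 158 and 361 in WT libraries and 4289 and 1710 in mutant ones, the opposite direction to Tfap2b. Tfap2e, at 3.15 and 2.12 against 5.27 and 8.52, was close to the floor. Msx3, a dorsal neural tube homeodomain gene, was lower at -8.20 ± 0.75 (4.27e-05), from 1728 and 1649 to 9.50 and 2.13, while Msx1 and Msx2 did not pass. In the SoxE family, Sox9 stood at 1525 and 2483 in WT and 772 and 351 in the mutant (-1.90, limma adjusted p 0.181), and Sox8 at 75.6 and 74.1 and at 61.2 and 44.7 (-0.51, 0.470), while Sox10 was higher. Erbb4 was lower at -2.38 ± 0.79 (0.0469), with 314 and 548 against 78.1 and 79.9, beside the higher Erbb3. Erbb2, the partner that Erbb3 needs to signal, did not pass (-0.46, 0.337), nor did Egfr (-0.37, 0.502). With limma Erbb2 did pass as lower in the mutant at EB4 and EB5, where 6.12% and 4.34% of all genes passed. At EB8, of 9 such relatives tested, 1 was higher and 2 lower, with a median change of -0.46, where 22.9% of all genes tested passed.

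**Figure D3:**
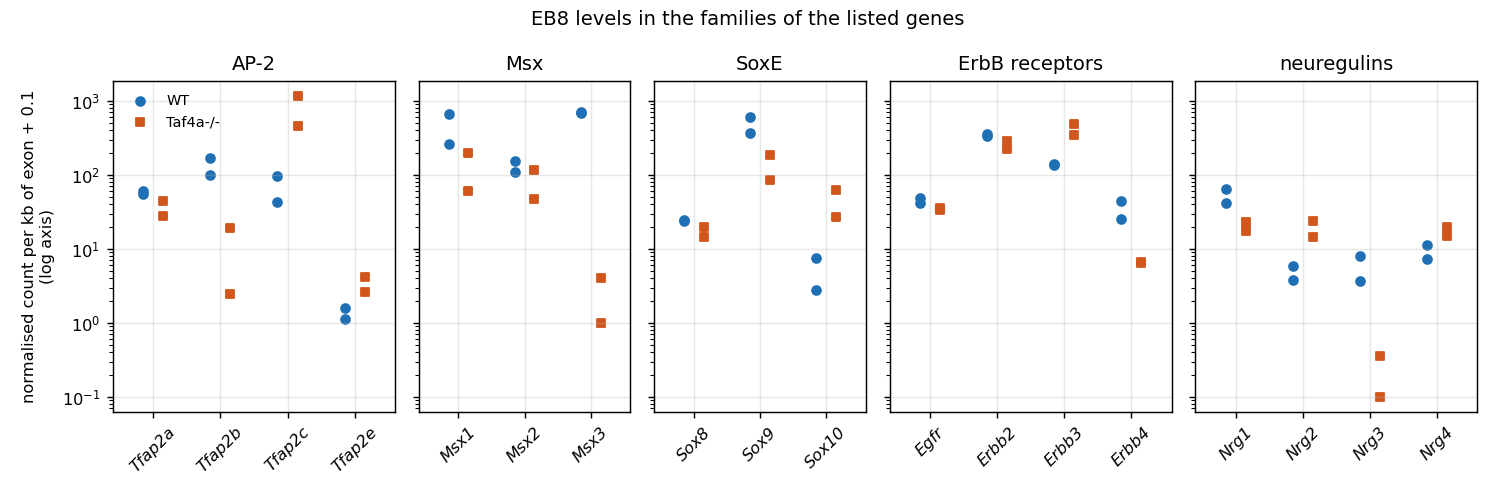
Normalised count per kb of exon plus 0.1 (log axis) at EB8 for the AP-2, Msx, SoxE, ErbB and neuregulin genes, 1 point per library (circles WT, squares Taf4a-/-). Tfap2b and Msx3 are higher in WT, and Tfap2c, Sox10 and Erbb3 are higher in the mutant.

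The neuregulins, ligands of Erbb3 and Erbb4, also went in both directions at EB8. For Nrg1 the WT libraries held 206 and 135 and the mutant libraries 73.9 and 55.4 (-1.37 ± 0.44, limma adjusted p 0.0398). Nrg2 had 11.6 and 18.0 against 73.9 and 44.7 (1.92 ± 0.65, 0.0494). Nrg3 had 14.7 and 31.8 against 1.06 and 0 and passed as lower (0.0130), with the mutant under the floor, a call lost without WT EB8 replicate 2 or mutant EB8 replicate 2 (up to 0.0931), while Nrg4 did not pass (0.90, 0.132). Of the 28 alternatives run for each, the calls stood in 15 for Nrg1, 9 for Nrg2 and 11 for Erbb4, so these 3 are close to the threshold, without change of sign.

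Other genes of the crest programme, from lists drawn up with earlier results of these data known, are given by count, to be read against the 10.4% higher and 12.5% lower of all genes at EB8. Of 6 other plate border factors, 3 were lower in the mutant at EB8 and 1 higher. Pax3 fell from 1447 and 1373 in WT to 79.1 and 33.0 (-4.76 ± 0.51, limma adjusted p 0.000110), Pax7 from 793 and 1012 to 74.9 and 21.3 (-4.45 ± 0.64, 0.000564) and Zic1 from 981 and 1810 to 382 and 136 (-2.54 ± 0.71, 0.0225), while Dlx3, a gene of non-neural ectoderm, was higher (2.46 ± 0.60, 0.0119). The paired-box factors Pax3 and Pax7 act beside Msx1 at the border, and both passed in all 28 alternatives, whereas Zic1 was lost without WT EB8 replicate 2 or mutant EB8 replicate 2 and Dlx3 without WT EB8 replicate 1 or mutant EB8 replicate 1. The median of this list was -1.91.

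Of 12 other crest specifiers tested, 3 were lower, namely Myb (-2.34), Sox5 (-2.13) and Mycn (-1.75), and Tfap2c was higher, with a median of -0.98. The limma adjusted p-values were 0.00924, 0.00494 and 0.00528, and Myb was lost without WT EB8 replicate 1 or mutant EB8 replicate 2 (up to 0.0789). Snai2, a marker of crest leaving the neural tube, had 34.6 and 66.7 in WT and 40.1 and 86.3 in the mutant and overlapped. Among 7 genes of migrating crest and its derivatives, 2 were lower and 0 higher (median -0.33). Ednrb, the endothelin receptor of melanocyte and enteric crest, went from 4691 and 4340 to 98.1 and 125 (-5.34 ± 0.87, limma adjusted p 0.00118), and Crabp1, a retinoic acid binding protein, from 5086 and 5116 to 351 and 290 (-3.99 ± 0.51, 0.000285). Crabp1 also marks much of the hindbrain. Of 7 inducing signals, Wnt1, a dorsal neural tube signal, was lower (611 and 2125 against 79.1 and 5.33, -5.66 ± 1.19, limma adjusted p 0.00531), as was Bmp7 (2186 and 2242 against 862 and 686, -1.52 ± 0.40, 0.0168), and the list median was -0.62. Wnt1 was lost without WT EB8 replicate 2 or mutant EB8 replicate 2 (up to 0.0574), and Bmp7 without WT EB8 replicate 1, WT EB8 replicate 2 or mutant EB8 replicate 2 (up to 0.0966).

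**Figure D4:**
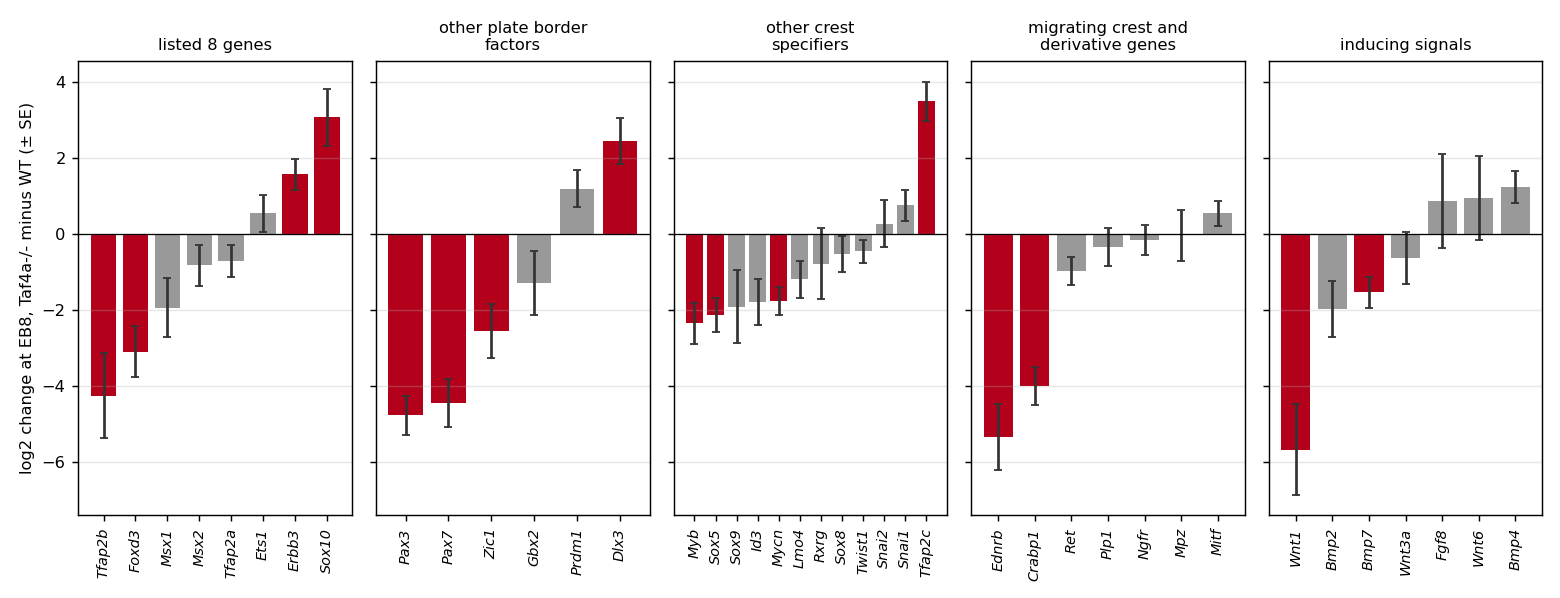
Log2 change at EB8, Taf4a-/- minus WT, for the 8 genes and the tested genes of 4 other crest lists (bars are limma estimates, whiskers ± SE, red where the adjusted p is under 0.05). Each list holds bars on both sides of 0, with Pax3, Pax7, Ednrb, Crabp1 and Wnt1 among the lowest.

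Markers of some other cell types also differed between genotypes at EB8, and their part in the differences of the members was not tested. Of all genes tested at EB8, 10.4% passed as higher and 12.5% as lower with limma, and 36% had an unadjusted p under 0.05. Of 5 pluripotency markers, 4 were higher in mutant EB8 (Nanog, Esrrb, Pou5f1 and Zfp42), and their summed normalised count was 18155 and 19788 against 1225 and 1274 in WT. Of 4 neural progenitor markers, which include Sox2, 2 were lower (Pax6 and Msi1), with sums of 11334 and 8688 against 29811 and 28232. Endothelial and blood markers, which bear on Ets1, had 3 of 7 higher (Tek, Pecam1 and Gata1) and summed to 3048 and 3576 against 1014 and 1030.2. In ES cells this sum was 1935 and 7082 in WT and 2383 and 2304 in the mutant. It was thus higher in WT ES cells than at WT EB8, and is not a measure of endothelial or blood cells alone. Surface ectoderm markers, which bear on Tfap2a and Dlx3, had 1 of 4 higher (Grhl3), sums of 1529.8 and 1329 against 971 and 851, and Krt14 at the floor in both genotypes. Trophoblast markers, which bear on Tfap2c, had 1 of 6 higher (Eomes), sums of 4482 and 1280.4 against 1497 and 1451, and Prl3d1 at the floor in both. Feeder fibroblast markers, of which 0 of 10 tested passed with limma (1 at an unadjusted p under 0.05), summed to 1689 and 4421 against 2632 and 3816, with Lum at the floor in the mutant. Mesoderm markers, also with 0 of 6 passing and 1 at an unadjusted p under 0.05, summed to 826 and 383 against 474 and 584.

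Over the 16 libraries, the members fell into unlike profiles. Pearson's r of log2(normalised count + 1), which is shaped by stages and libraries shared by all genes and is given without a test, was 0.87 between Tfap2a and Msx1, 0.82 between Msx1 and Msx2 and 0.80 between Tfap2a and Tfap2b. Foxd3 was at -0.68 with Msx2 and -0.67 with Tfap2a, Erbb3 at -0.69 with Tfap2b, and Sox10 ranged from -0.64 with Foxd3 to 0.34 at the highest. Among all other tested genes, those most like Foxd3 were Enc1 (r = 0.93), Yars (0.92) and Ctbp2 (0.92), and those most like Sox10 were Gm11611 (0.91), Acp5 (0.87) and Barx1 (0.85). For Tfap2a they were H2afy (0.94), Zic1 (0.94) and 1500016L03Rik (0.93), and for Tfap2b Gm16010 (0.95), Kcnd3 (0.95) and BC005764 (0.95). Msx1 was followed most closely by Grrp1 (0.92), Osr1 (0.90) and Tmem132e (0.90), and Msx2 by Smad6 (0.95), Tmem56 (0.94) and Pmp22 (0.94). For Ets1 these were Lpp (0.94), Ctsh (0.91) and Slc25a24 (0.91), and for Erbb3 Zbtb44 (0.96), Aire (0.95) and Fabp3 (0.94).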

How the data were processed

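Per the labels, poly-A libraries (TruSeq v2, a kit that does not mark strand) of WT and Taf4a-/- cells were sequenced as single-end reads of 54 bases, and the submitters' processing notes list CASAVA 1.7 and 1.8, TopHat2 2.0.10, HTSeq 0.5.4p3, DESeq2 1.0.19 and build mm9. The annotation release and strand setting are not given in the sources used here. The deposited values are a signal per gene, the read count divided by a DESeq2 size factor, and 100% of them were whole reads within 0.01 reads. A gene with 3 reads or fewer was taken as at the floor, which covers counting error only. Gene positions and exon lengths came from the GENCODE annotation of NCBI37.

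Genes with a mean of at least 10 were tested by limma 3.58.1 (R 4.3.3) on log2(value + 1), a scale that understates changes of low genes, with a mean for each of the 8 groups, eBayes with trend and Benjamini-Hochberg adjustment over 16124 genes at 0.05. All 8 members passed this filter, Tfap2b only through its later stages. The script was tested on simulated data with known changes. Changes of members are given only where the groups' ranges did not overlap or the test passed. Differences between steps are given where the unadjusted p was under 0.05 or the ranges moved in opposite directions in WT and mutant. Alternatives were pseudocounts, filters, scalings, fits of fewer groups, replicate blocks, edgeR 4.0.16 and DESeq2 1.42.0 on the recovered reads, and leaving out each library. Likeness is the 3 genes with the highest Pearson's r for each member. List genes are named if they passed at EB8 or are relatives, ligands or receptors of a member. The members and lists were chosen with earlier results of these data known. A gene of these lists is not reported here.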

Additional observations from a re-analysis of the deposited data

Results flagged for a closer look

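In 2 members the groups' ranges moved in opposite directions in WT and mutant over a step. From ES to EB4, Tfap2a lay lower at EB4 in WT (31.9 and 27.1 to 26.3 and 15.0) and higher in the mutant (33.2 and 35.0 to 46.7 and 53.6), a difference of 1.08 ± 0.58 on the log2 scale that did not pass the interaction test (limma adjusted p 0.764). From EB5 to EB8, Ets1 went from 626 and 656 to 551 and 612 in WT and from 336 and 257 to 637 and 1143 in the mutant, a difference of 1.68 ± 0.68 that did not pass either (limma adjusted p 0.416).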

How the results depend on the processing

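At EB8, 4 members passed with limma (22.9% of all genes), 5 with DESeq2 (28.7%) and 4 with edgeR (22%). Fewer passed when some of the libraries were left out. No reported change of a member changed sign under any alternative. Leaving out a library moved the members passing to between 0 and 1 for genotype at EB5 and for EB4 against ES in WT, to between 1 and 3 for EB5 against EB4 in WT, to between 0 and 2 for EB8 against EB5 in WT and for EB5 against EB4 in the mutant, and to between 0 and 1 for the genotype difference in the EB5 to EB8 change. DESeq2 called 1 member at EB4 (13.4% of all genes), 1 at EB5 (10.7%) and 1 for the genotype difference of the last step (3.03%). It called 5 for EB5 against EB4 in WT (6.92%) and 4 in the mutant (6.29%). For EB8 against EB5 in the mutant it called 2 (4.18%). A fit of the compared groups alone, with fewer samples, called 1 for EB5 against EB4 in WT and 0 in the mutant, and a pseudocount of 0.1 called 1 for EB8 against EB5 in WT. The causes of these moves were not tested beyond the smaller samples. The library numbers are shared between groups without a stated pairing, and the differences between replicates 1 and 2 correlated across genes at 0.33 between genotypes at ES but at -0.21 at EB5 and -0.13 at EB8. Within genotype these correlations were 0.52 to 0.61 between WT EB groups, -0.18 to -0.05 between WT ES and WT EBs, and 0.23 to 0.42 between mutant groups. With a replicate block the members passing at EB8 were 4 and those for EB5 against EB4 in WT 2, where Msx2 was lost (adjusted p 0.0512). With a replicate block within genotype, and with the mutant numbers exchanged, a choice made after seeing these correlations, 2 members passed for EB5 against EB4 in the mutant, Msx2 (adjusted p 0.0165 and 0.0156) beside Foxd3, and 1 (Foxd3, 0.0323 and 0.0402) for the genotype difference of the last step. Msx1 passed for EB5 against EB4 in WT with the block within genotype (0.0446) and not with the exchanged numbers. With 2 libraries a group, most calls rest on single libraries, and Sox10 and Tfap2b rest on low counts.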
